A study of Mus musculus with 31 samples.

Results

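The masseter muscle (MM) shortly after injection of 10U collagenase type 2 (Col) was compared with MM injected with vehicle. The 7 libraries were chosen by their labels from the 31 of the series: 4 of the 10U group with the early label, here the early 10U Col group, and 3 of the vehicle group of the Col experiment (Contr). The early libraries carry a label of 2 days, and the study's text gives 1d for this time point. The 4 late 10U Col libraries, labelled 12 days and given as 14d in the text, served as a further comparison, and 3 libraries at 6d are given as values. All mice were wild-type male C57BL/6J adults of 2 to 4 months with a left-side intramuscular injection, and PBS was the vehicle. When the vehicle mice were collected is not given in the sources used here. Poly(A) RNA of whole MM was sequenced, so that fewer cells of a type and less RNA per cell cannot be told apart. The labels do not say whether libraries of a group come from separate mice, although the study's text plans 3 to 4 mice per group for sequencing. The p-values measure the spread between these libraries.

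Collagenase digests the collagen that holds muscle fibres together, and is injected to model tissue damage. Damaged fibres switch on stress genes, resident cells release chemokines that draw monocytes and neutrophils from the blood, and the monocytes become macrophages that clear debris. Satellite cells, the stem cells of muscle, then divide, express myogenic factors such as myogenin and fuse into new fibres, while the mature contractile and energy-producing apparatus is reduced.

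Reads counted on genes ranged from 15759560 to 27573542 in the early group and from 21284802 to 23862787 in the vehicle group. Early library 4 stood apart from its group. It was the deepest of the 4, with 15759560 to 16753167 counts in the others. On log2 CPM (counts scaled to library size), its mean correlation was 0.914 with the other early libraries and 0.942 with the vehicle libraries, while the other 3 early libraries lay at 0.937 to 0.961 and 0.886 to 0.911. Counts of called genes are therefore given with and without it. It was singled out partly by its likeness to vehicle, which comes from the values being compared. Counts without it are thus not an independent test. Among the late libraries, library 4 differed from the other 3 in many genes named below. Whether the labels of early library 4 and late library 4 are right was not tested. Muscle identity was clear in every library: the summed level of 44 sarcomere genes was 57651 to 77413 CPM in the early and 123340 to 174895 CPM in the vehicle group. Genes of neighbouring tissue were present unevenly, and salivary gland markers summed to 52.3 to 119585 CPM in early and 91.3 to 147369 CPM in vehicle libraries.

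The 10U libraries differed from all others in a further way. The share of reads that overlapped more than 1 gene was 0.331 to 0.399% in all 11 10U libraries and 0.0757 to 0.138% in the 20 other libraries of the series. Genes whose CPM in all 11 10U libraries lay on one side of all 20 others were set apart, because a treatment effect and a difference in how reads were counted cannot be told apart for them. Of the genes tested, 78 lay higher and 54 lower in this sense. Exons on the opposite strand overlapped the gene in 44.6% of the higher and 88.7% of the lower ones that have a gene model, against 21.9% of all tested genes.

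**Figure D1:**
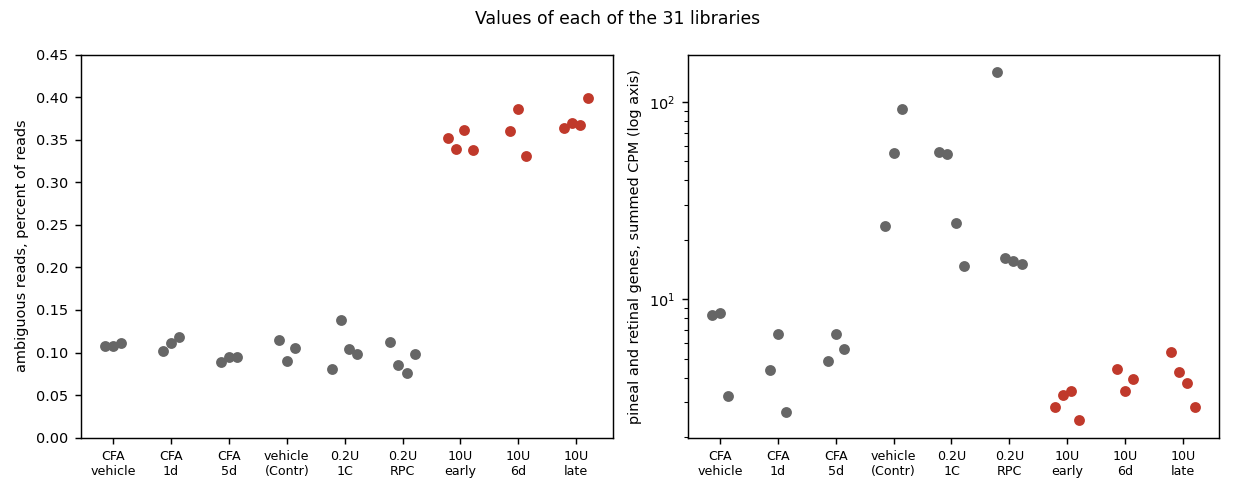
Each point is 1 of the 31 libraries by group, red for 10U Col and grey for all others. Left, reads overlapping more than 1 gene in percent of reads, which are 0.331 to 0.399% in 10U libraries and at most 0.138% elsewhere; right, the summed CPM on a log axis of pineal and retinal genes, which are 2.44 to 5.4 in 10U, 14.8 to 142 in Contr and 0.2U Col and 2.69 to 8.48 in CFA-experiment libraries.

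To ask which genes differ soon after 10U Col, edgeR's quasi-likelihood test was run on the 14373 genes that reached 10 counts in 3 or more of the 7 libraries. A gene was called at a Benjamini-Hochberg adjusted p under 0.05 and a fold change over 2. With all 4 early libraries, 153 genes (1.06%) were up-regulated and 126 (0.877%) down-regulated. Without the genes set apart, 108 (0.758%) were up- and 100 (0.702%) down-regulated, and these are described below. The counts hinged on the libraries. Without early library 4, 1481 genes (10.5%) were up- and 1704 (12%) down-regulated, 272 of the 279 genes called with all libraries among them. Of these, 1423 (10.1%) and 1663 (11.9%) were not set apart. Leaving out vehicle library 3 gave 353 and 141. Leaving out any other library left 10 to 19 up- and 2 to 9 down-regulated genes. DESeq2 on the same 7 libraries gave 1110 (7.74%) and 931 (6.5%), which held 277 of the 279. In 23.9% of the tested genes all early libraries lay on one side of all vehicle libraries. All 108 up- and 100 down-regulated genes not set apart were among them. At an unadjusted p under 0.05 in edgeR's test, 17.5% of all tested genes were higher and 15.8% lower.

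**Figure D2:**
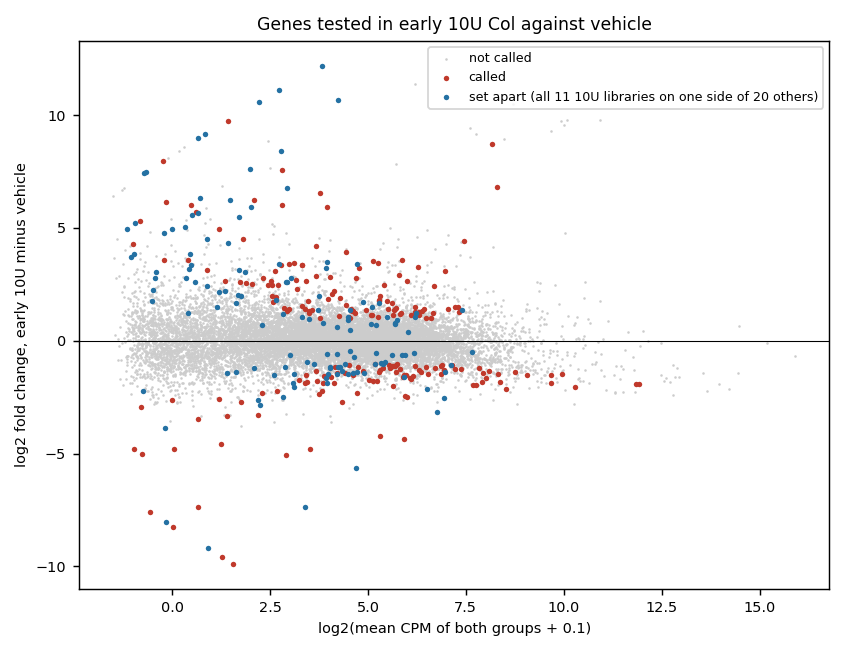
Each point is a tested gene, with log2 of the mean CPM of both groups plus 0.1 on the x axis and the log2 fold change of early 10U Col over vehicle on the y axis. Red points are the 108 up- and 100 down-regulated genes, blue points the 132 genes set apart whether called or not, and several of the largest fold changes are blue.

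The 12 largest increases included Saa3, Ankrd1, Rrad and the chemokines Cxcl5, Ccl7 and Ccl2, and in each of these 6 genes library 4 was the lowest early library. Saa3, an acute-phase serum amyloid made by inflamed tissue (chr7:53967368-53971046, mm9, minus strand), had no count in the 3 vehicle libraries and 4.78, 6.6, 8.52 and 0.638 CPM in early libraries 1 to 4, at least 96.3-fold higher against a floor of 3 counts over the vehicle group. Ankrd1, a cardiac and stretch-responsive ankyrin repeat protein of the sarcomere (chr19:36186455-36194334, minus strand), measured 1.46, 0.587 and 1.95 CPM in vehicle and 1026, 512, 770 and 4.73 CPM in early libraries. It rose by 8.74 on the log2 scale (SE 1.72, adjusted p = 0.0483, edgeR), and early library 4 lay just above the vehicle range. Rrad, a small GTPase induced in regenerating muscle, showed the same split, with 5.15 to 6.2 CPM in vehicle, 713 to 1053 CPM in early libraries 1 to 3 and 18.7 CPM in library 4 (log2 fold change 6.82, SE 1.26, adjusted p = 0.0483, edgeR).

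Among the 12 largest increases were also Gdf15, a stress-induced cytokine, Hmga2, a chromatin protein of dividing progenitors, Clec4n, the C-type lectin receptor dectin-2 of myeloid cells, Gpr55, a lipid receptor, C2cd4b and Atcay. Gdf15 was at 0 to 0.196 CPM in vehicle and 13.2, 9.93, 7.94 and 1.61 CPM in the early libraries (log2 fold change 6.22, SE 1.04). Clec4n was at 0.136 to 0.261 CPM in vehicle and 3.45 to 25.2 CPM in early libraries (log2 fold change 6.01, SE 0.77). The groups did not overlap for these genes, which was a condition for being named among the largest increases. Gpr55 had no vehicle count, and its 0.399 to 2.21 CPM in early libraries made it at least 29.5-fold higher; it overlaps 71 bases of exons on the opposite strand. Hmga2 had 1 vehicle count against 131 early counts, a ratio of 89.9 (95% interval 15.8 to 3576, counting error only). C2cd4b, with 605 opposite-strand bases, had 2 against 207 counts, a ratio of 71 (19.4 to 590). Atcay overlaps 432 opposite-strand bases and had 3 against 258 counts, a ratio of 59 (20 to 288). With the vehicle libraries of both experiments pooled, the log2 fold change of Atcay was 2.51 and its call was lost (adjusted p = 0.0596, edgeR). Atcay was at 0.873 to 5.44 CPM in early and 2.98 to 18.4 CPM in late libraries.

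Monocyte-attracting chemokines were the list with the largest share of up-regulated members. Of 13 tested ligands and receptors, 6 rose and 0 fell in edgeR's test, against 1.06% of all tested genes that rose, and without early library 4 the count was 11, against 10.5%, as with DESeq2, against 7.74%. Their median log2 fold change was 2.97, and over all tested genes it was 0.02. Ccl2, the main ligand of the monocyte receptor Ccr2 (chr11:81849073-81850955), was at 0.728, 0.196 and 0.498 CPM in vehicle and at 33, 28.9, 54.3 and 4.95 CPM in the early libraries. It rose by 5.94 (SE 0.89, adjusted p = 0.0337, edgeR). Ccl7, a neighbouring ligand of the same receptor (chr11:81859214-81861027), was at 0.261 to 0.319 CPM in vehicle and at 28.9, 26.6, 50.5 and 2.06 CPM in the early libraries, a rise of 6.54 (SE 1.09, adjusted p = 0.0408, edgeR). No early library overlapped the vehicle range for either ligand, which their choice among the largest increases required. Early library 4 was the lowest for both.

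Other called members included Ccl6, Ccl9 and Ccl12, further monocyte ligands. Their log2 fold changes lay between 2.90 and 3.26, and Ccl6 reached the highest level, with 47.1 to 267 CPM in early against 8.87 to 18.3 CPM in vehicle libraries. Ccr2 itself measured 4.55, 2.35 and 14.3 CPM in vehicle and 44.2, 36, 59.9 and 32.9 CPM in early libraries, with an adjusted p of 0.054 (edgeR). In Ccr2, library 4 was close to the other early libraries.

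Of 7 tested neutrophil-attracting chemokines and receptors, 1 rose, against 1.06% of all tested genes, and 5 rose without early library 4, against 10.5%. The called member was Cxcl5, a ligand of the neutrophil receptor Cxcr2, with at most 0.091 CPM in vehicle and 10.2, 17.1, 27.1 and 0.488 CPM in early libraries (log2 fold change 7.58, SE 1.49, adjusted p = 0.0483, edgeR). Cxcl2 and Cxcl3, ligands of the same receptor, were at 10.6 to 22.7 CPM and 8.3 to 24.3 CPM in early libraries 1 to 3, while library 4 was at 0.075 and 0.0375 CPM, inside the vehicle ranges. Of 24 cytokines and receptors, 1 rose, Tnfrsf12a, the TWEAK receptor of damaged muscle, and 15 rose without library 4. Tnfrsf12a was at 8.79 to 9.4 CPM in vehicle and at 174, 108, 131 and 15.2 CPM in the early libraries. Il6, which acts on muscle, liver and sensory neurons, was at 1.21, 2.84, 9.59 and 0 CPM in the early libraries and at 0 to 0.131 CPM in vehicle, and Il1b was at 7.3, 7.15, 13.1 and 0.825 CPM against 0.131 to 1.9 CPM. Both overlapped vehicle only through library 4.

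Of the 27 macrophage markers tested, 4 rose and 0 fell, against 1.06% of all tested genes that rose, and 18 rose without early library 4, against 10.5%. The summed level was 903 to 3523 CPM in early and 250 to 910 CPM in vehicle libraries. The called members were Fcgr1, the high-affinity IgG receptor, Trem2, a lipid-sensing receptor of phagocytes, and the membrane proteins Ms4a6b and Ms4a7. Trem2 was at 1.23, 0.587 and 1.9 CPM in vehicle and at 12.6, 11.1, 15.6 and 4.05 CPM in early libraries (log2 fold change 3.11, SE 0.58, adjusted p = 0.0483, edgeR). Fcgr1 was at 0.979 to 1.99 CPM in vehicle and 5.1 to 26.7 CPM in early libraries. The groups did not overlap for these 4 genes, as for all up-regulated genes not set apart. Among general macrophage genes that were not called, Csf1r was at 42 to 79.3 CPM in early and 21 to 57.9 CPM in vehicle libraries. Lyz2 was at 235 to 595 CPM against 48 to 255 CPM. Pattern recognition receptors gave 1 called member of 19, Clec4n, and 11 without library 4, and Tlr4, the lipopolysaccharide receptor, was at 20.5 to 53.3 CPM in early and 6.92 to 16.7 CPM in vehicle libraries (adjusted p = 0.054, edgeR).

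Of 12 neutrophil markers, 0 were called in edgeR's test with or without early library 4, 1 had an unadjusted p under 0.05, DESeq2 called 1 lower, and the median log2 fold change was -1.62. Over all tested genes, 17.5% were higher and 15.8% lower at that unadjusted p. Against the late 10U Col group, the median log2 fold change of these markers was 1.79. There, 1 was called higher, and 4 without early library 4, against 3.66% and 9.97% of all tested genes. S100a8, a calprotectin subunit of neutrophils, was at 78.1, 1.76 and 243 CPM in the vehicle libraries and 9.82 to 69.9 CPM in the early ones. The early libraries thus lay inside the wide vehicle range. Only 5 of 16 T and NK cell markers and 6 of 8 B cell markers had enough counts to be tested. The tested T and NK cell markers summed to 2.59 to 3.77 CPM in early and 2.22 to 8.29 CPM in vehicle libraries. The tested B cell markers summed to 3 to 13.1 and 1.17 to 16 CPM. No tested member of either was called by edgeR or DESeq2, with 1 and 0 at an unadjusted p under 0.05. Of 9 dendritic cell markers, edgeR called 0, 4 had an unadjusted p under 0.05, DESeq2 called 1 higher, and 2 rose without library 4. Of 5 mast cell markers, edgeR called 0, 3 had an unadjusted p under 0.05, DESeq2 called 1 higher, and without library 4, 1 rose and 2 fell. Against vehicle, DESeq2 called 7.74% of all tested genes higher and 6.5% lower, and without library 4, 10.5% rose and 12% fell.

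**Figure D3:**
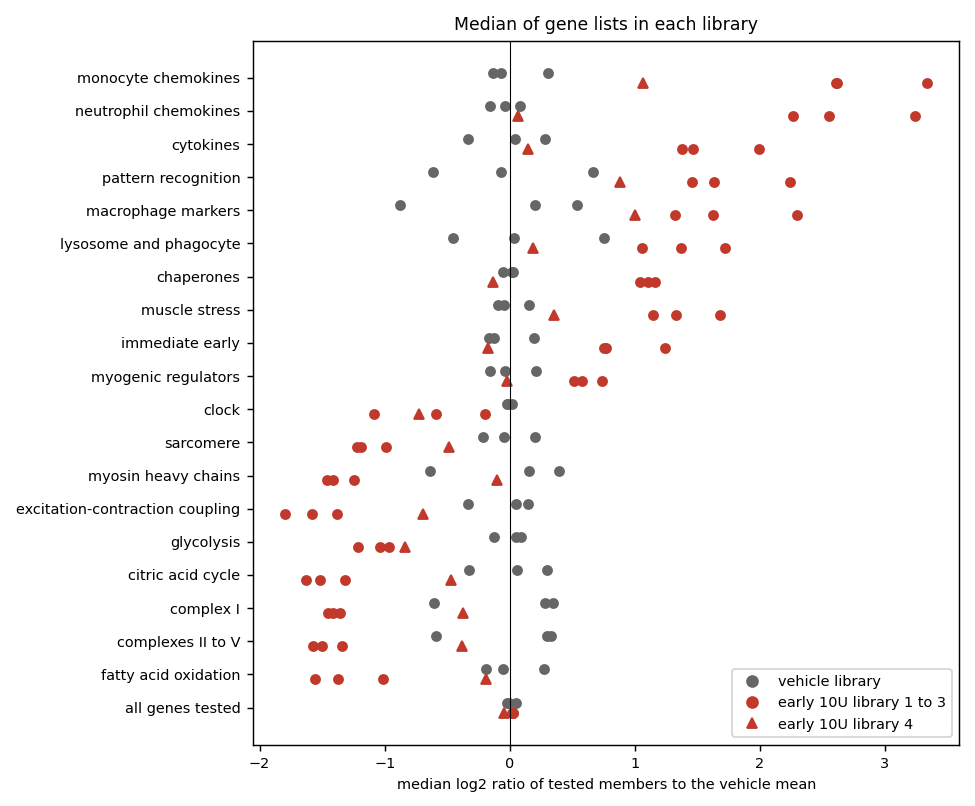
Rows are gene lists, and each point is the median over the tested members of the log2 ratio of 1 library to the vehicle mean (x axis). Grey circles are vehicle libraries, red circles early 10U libraries 1 to 3 and red triangles early library 4, which lies nearer 0 than the other 3 in every list shown but clock. Early library 4 lies within the vehicle range for neutrophil chemokines, cytokines, lysosome and phagocyte, myogenic regulators, myosin heavy chains, complex I, complexes II to V and fatty acid oxidation.

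Of 19 muscle stress genes only Ankrd1 was called with all libraries, against 1.06% of all tested genes that rose. Without early library 4, 11 rose and 2 fell (Gadd45g and Klf15), against 10.5% and 12%. Among the 11, Runx1, a transcription factor induced in denervated and injured muscle, measured 132, 98, 130 and 13.4 CPM in the early libraries and 6.01 to 14 CPM in vehicle. The list of 22 myogenic regulators also holds acetylcholine receptor subunits such as Chrng. Of its genes, Myog and Chrng rose and 0 fell. Without library 4, 8 rose and 3 fell (Chrne, Mstn and Pax7), and DESeq2 called 7 higher and 3 lower. Myog, the transcription factor of differentiating myoblasts (chr1:136186581-136189124), was at 8.06, 8.16 and 3.35 CPM in vehicle and at 93.9, 69.4, 103 and 15.1 CPM in early libraries (log2 fold change 3.45, SE 0.67, adjusted p = 0.0483, edgeR). Chrng, the fetal gamma subunit of the acetylcholine receptor (chr1:89102386-89108410), was at 0.0906 to 0.273 CPM in vehicle and at 2.78, 2.78, 2.66 and 0.788 CPM in early libraries, a rise of 3.57 (SE 0.65, adjusted p = 0.0483, edgeR). At 6d, the libraries measured 191 to 278 CPM for Myog and 89.8 to 195 CPM for Chrng. Pax7, the marker of satellite cells, was at 0.263 to 1.95 CPM in early and 2.63 to 6.74 CPM in vehicle libraries (adjusted p = 0.087, edgeR).

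Hmox1, the heme-degrading oxygenase (chr8:77617490-77624495), was at 16.9, 11.2 and 19.5 CPM in vehicle and at 386, 356, 536 and 66.4 CPM in early libraries, and rose by 4.41 (SE 0.69, adjusted p = 0.0393, edgeR). It was the only called member of 8 heme and iron genes, of which 2 rose and 1 fell without library 4. Mmp12, the macrophage elastase, was the only called member of 28 proteases and inhibitors, with 0.0653 to 0.181 CPM in vehicle and 1.09 to 6.3 CPM in early libraries. Without library 4, 9 of these 28 genes rose and 2 fell. Of the 23 immediate early genes Atf3 and Jund rose, against 1.06% of all tested genes, and Nr4a1, a nuclear receptor active in contracting muscle, fell, against 0.877%. Without library 4, 9 rose and 1 fell, against 10.5% and 12%. Nr4a1 was at 354 to 399 CPM in vehicle and 70.9 to 137 CPM in all early libraries (log2 fold change -1.84, SE 0.26, adjusted p = 0.0269, edgeR).

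Promoters of 3 muscle genes are shown because they belong to members with opposite changes: Ankrd1 and Chrng rose and Actc1 fell. The windows are RefSeq sequences of build GRCm38.p6, from 250 bases before to 50 bases after the start, 5′ to 3′ on the gene's strand. Capitals mark matches on either strand to CAGCTG (a myogenic E-box), CACGTG (a clock E-box), TGANTCA (AP-1), TATAAA or CATTCC (MCAT).
Ankrd1 (chr19:36119795-36120094, minus strand): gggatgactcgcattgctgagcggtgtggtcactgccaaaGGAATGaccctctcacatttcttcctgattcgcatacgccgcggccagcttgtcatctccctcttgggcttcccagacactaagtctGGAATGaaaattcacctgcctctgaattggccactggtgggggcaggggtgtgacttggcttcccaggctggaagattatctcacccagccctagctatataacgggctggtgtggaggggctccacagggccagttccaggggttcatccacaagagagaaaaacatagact
Chrng (chr1:87205561-87205860, plus strand): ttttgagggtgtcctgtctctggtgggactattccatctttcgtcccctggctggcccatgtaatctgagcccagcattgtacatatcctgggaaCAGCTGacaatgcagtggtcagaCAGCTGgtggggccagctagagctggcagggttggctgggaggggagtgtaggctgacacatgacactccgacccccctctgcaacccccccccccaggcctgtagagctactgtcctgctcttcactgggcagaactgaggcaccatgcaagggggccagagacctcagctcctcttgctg
Actc1 (chr2:114052826-114053125, minus strand): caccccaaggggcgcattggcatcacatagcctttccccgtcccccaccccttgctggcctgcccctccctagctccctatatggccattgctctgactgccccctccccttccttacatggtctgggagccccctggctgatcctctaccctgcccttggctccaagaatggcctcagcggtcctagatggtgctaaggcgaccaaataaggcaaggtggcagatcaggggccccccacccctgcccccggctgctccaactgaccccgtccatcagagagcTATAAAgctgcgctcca
Ankrd1 held 2 CATTCC matches, at -210 and -123 from the start, and Chrng 2 CAGCTG matches, at -155 and -132. Actc1 held a TATAAA match at position 34, after the annotated start. Of all 32851 windows, 16.3% held CAGCTG, 14.7% CATTCC and 13.6% TATAAA. Windows of 71 up-regulated genes held CAGCTG in 17.4% and CATTCC in 11.6%, and windows of 75 down-regulated genes in 20.2% and 13.5%.

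Of 44 sarcomere genes tested, 6 fell and 0 rose, against 0.877% of all tested genes that fell, and 22 fell and 2 rose without early library 4, against 12% and 10.5%. Log2 fold changes were negative in 32 and positive in 12, and their median was -0.93. Tmod1, which caps the pointed end of thin filaments (chr4:46051807-46128904), was at 645, 631 and 547 CPM in vehicle and at 102, 116, 122 and 200.2 CPM in the early libraries, and fell by 2.14 on the log2 scale (SE 0.28, adjusted p = 0.0257, edgeR). It overlaps 1287 bases of exons of Tstd2 on the opposite strand. Actc1, the cardiac alpha-actin also made by fetal muscle (chr2:113873018-113879284), was at 69.2 to 151 CPM in vehicle and 10.8 to 31.5 CPM in early libraries, and fell by 2.47 (SE 0.41, adjusted p = 0.0408, edgeR).

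Actn3, the alpha-actinin of fast fibres, Mybpc2, fast myosin-binding protein C, and Myom1 and Myom2 of the M-band also fell, with log2 fold changes of -1.91 to -1.52. Actn3 was at 4885 to 6882 CPM in vehicle and 1311 to 1787 CPM in early libraries. All 4 early libraries were below all vehicle libraries for these 6 genes, as for all down-regulated genes not set apart. Of the 10 myosin heavy chains, Myh3, the embryonic form, fell, from 18 to 23.6 CPM in vehicle to 2.81 to 7.64 CPM in early libraries, and 7 fell without library 4. With the vehicle libraries of both experiments pooled, Myh3 was not called (adjusted p = 0.234, edgeR). Myh4, the fast IIb form and the most counted of the list, was at 15762 to 24287 CPM in vehicle and 2622 to 5976 CPM in early libraries (adjusted p = 0.0501, edgeR). Of the 20 excitation-contraction coupling genes 1 fell, Camk2a, a calcium-dependent kinase, and 13 fell and 1 rose without library 4. Over all tested genes, 0.877% fell with all libraries, and without library 4, 12% fell and 10.5% rose.

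Of 27 genes of glycolysis and glycogen breakdown, 5 fell and 0 rose, against 0.877% of all tested genes that fell. Without early library 4, 16 fell and 5 rose, against 12% and 10.5%. Log2 fold changes with all libraries were negative in 20 and positive in 7. The called genes were Pgam2, muscle phosphoglycerate mutase, Tpi1, triosephosphate isomerase, Phka1 and Phkb, subunits of phosphorylase kinase, and the glucose transporter Slc2a3. Pgam2 was at 2066, 2382 and 1594 CPM in vehicle and at 276, 435, 452 and 720 CPM in early libraries (log2 fold change -2.07, SE 0.38, adjusted p = 0.0483, edgeR). Hk2, an insulin-regulated hexokinase, ran the other way in early libraries 1 to 3, at 798 to 1288 CPM against 451 to 605 CPM in vehicle, while library 4 was at 322 CPM.

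For the respiratory chain, the call turned on early library 4 and on the test used. None of 36 complex I subunits was called by edgeR with all libraries, although 34 had an unadjusted p under 0.05 and DESeq2 called 23 lower, and 31 fell without library 4. Of 38 subunits of complexes II to V, 0 were called by edgeR, 30 had an unadjusted p under 0.05, DESeq2 called 21 lower, and 35 fell without library 4. All 74 genes had negative log2 fold changes, with medians of -1.13 and -1.08. Sdha, a subunit of complex II and of the citric acid cycle, was at 1508, 1173 and 972 CPM in vehicle and at 377, 429, 378 and 893 CPM in early libraries, so that library 4 lay near the lowest vehicle value. Fatty acid oxidation gave 0 called of 27 by edgeR (15 at an unadjusted p under 0.05; DESeq2 1 higher and 7 lower), and without library 4 18 fell and 1 rose. Over all tested genes, 17.5% were higher and 15.8% lower at that unadjusted p. DESeq2 called 7.74% of them higher and 6.5% lower, and without library 4, 10.5% rose and 12% fell.

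**Figure D4:**
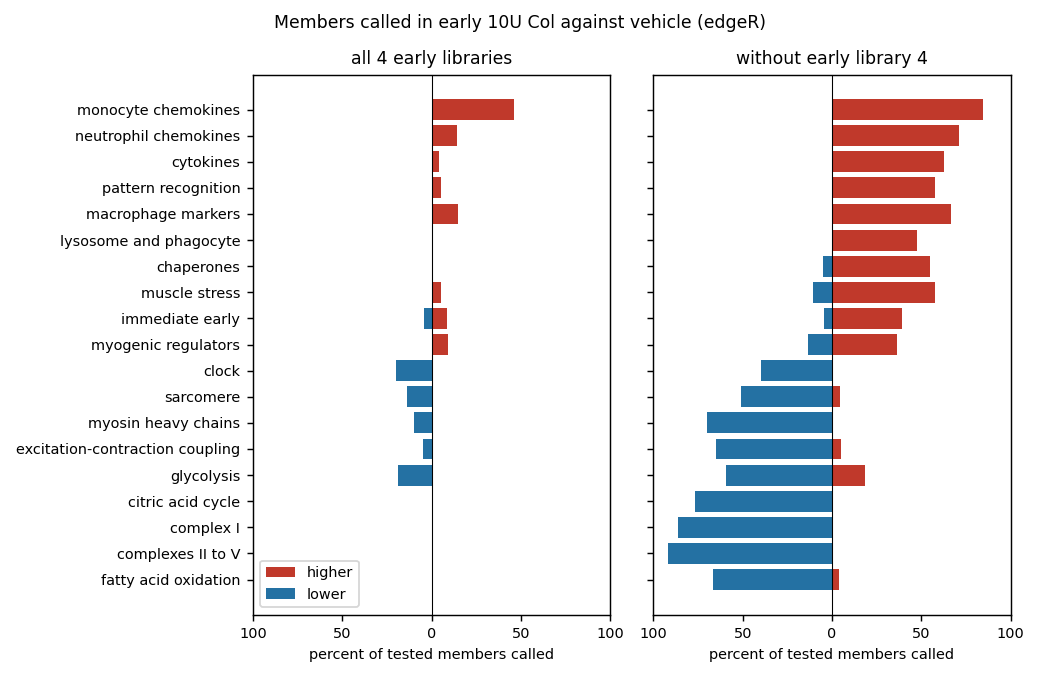
Bars give the percent of the tested members of each list called up-regulated (red, to the right) or down-regulated (blue, to the left) in early 10U Col against vehicle. With all 4 early libraries (left) monocyte chemokines have the longest bar of 6 in 13, and without library 4 (right) 31 of 36 complex I and 35 of 38 complex II to V genes are down-regulated. Over all tested genes, 1.06% are up-regulated with all 4 libraries and 12% down-regulated without library 4.

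Of 15 clock genes, 3 fell, against 0.877% of all tested genes, and 6 fell without early library 4, against 12%. Dbp, a clock-output transcription factor (chr7:52960458-52965525), was at 69.1, 84 and 70.2 CPM in vehicle and at 2.52, 4.37, 1.2 and 7.65 CPM in early libraries, and fell by 4.20 on the log2 scale (SE 0.56, adjusted p = 0.0257, edgeR). It overlaps 491 bases of Sphk2 exons on the opposite strand. Its relative Tef, at 253 to 441 CPM in vehicle and 111 to 168 CPM in early libraries, and Per3, at 23 to 27.1 and 5.01 to 12.6 CPM, were also down-regulated. Arntl, the activator of Dbp, was at 23.5 to 31.8 CPM in vehicle and 30.1 to 51.9 CPM in early libraries (adjusted p = 0.14, edgeR). The hour of collection is not given, and its part in these values was not tested. Dbp was also low at 6d (12.2 to 14.6 CPM) and in the late group (5.97 to 10 CPM).

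Most of the largest decreases belonged to genes of pineal gland or retina, not of muscle, and 1 to a gene of tooth enamel. Of the 12 genes with the largest decrease, Rbp3, Crx, Cplx3, Chrnb4, Chrna3, Chgb and Cdhr1 are pineal or retinal genes, and Amelx codes for the enamel protein amelogenin. Rbp3, the retinoid-binding protein of photoreceptors, was at 2, 5.68 and 9.19 CPM in vehicle and had no count in any 10U or CFA-experiment library, at least 162-fold lower in the early group. Crx, a photoreceptor and pineal transcription factor, was at 0.546 to 1.95 CPM in vehicle and also had no count in 10U libraries, at least 34-fold lower. Both were present in the 0.2U Col libraries too, Rbp3 at 0.992 to 13.2 CPM. Amelx was at 0.637 to 3.17 CPM in vehicle, 0.701 to 6523 CPM in 0.2U Col and at most 68.4 CPM in CFA-experiment libraries. Rcvrn, the retinal calcium-binding protein recoverin, had no count in vehicle. Over 18 pineal and retinal genes, listed after the data had been seen, the summed level was 23.6 to 92.3 CPM in vehicle, 14.8 to 142 CPM in 0.2U and 2.44 to 3.42 CPM in early 10U libraries. CFA-experiment libraries, vehicle included, were at 2.69 to 8.48 CPM. With the vehicle libraries of both experiments pooled, Rbp3, Chrnb4, Amelx, Crx and Chrna3 were not called, at adjusted p of 0.0574 to 0.0763 (edgeR). An effect of 10U Col and a difference in the tissue dissected cannot be told apart for these genes.

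The remaining 4 of these 12 were Ptgds, a prostaglandin D synthase, Kcng1, a potassium channel subunit, Cacna2d4, a calcium channel subunit, and A530098C11Rik. Ptgds was at 7.38, 27.1 and 31.6 CPM in vehicle and 0.355 to 1.42 CPM in early libraries. Cacna2d4 was at 0.91, 1.04 and 3.44 CPM in vehicle and 0 to 0.164 CPM in early libraries. For Ptgds, Kcng1 and Cacna2d4, the level rose from vehicle library 1 to 3, as for Rbp3. Whether a difference in the tissue dissected plays a part in these genes was not tested. A530098C11Rik was at 69.8, 168 and 111 CPM in vehicle and 0.473, 3.33, 8.79 and 9.57 CPM in early libraries (log2 fold change -4.35, SE 0.82, adjusted p = 0.0483, edgeR). It returned to 88.5 to 199 CPM in 3 of the 4 late libraries.

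To read the early group without the vehicle libraries, it was compared with the late 10U Col group, whose libraries share the dose and the higher share of ambiguous reads. Of 14459 tested genes, edgeR called 529 (3.66%) higher and 249 (1.72%) lower in the early group, and 1420 (9.97%) and 1717 (12%) without early library 4. Leaving out late library 4 gave 1352 and 573, leaving out early library 3 gave 284 and 25, and any other library left out gave 0 to 12 and 0 to 1. The early libraries are shared by both comparisons. Hmox1 was 4.65 (SE 0.64, adjusted p = 0.0211, edgeR) above the late group on the log2 scale, and Ccl2 4.34 (SE 0.68, adjusted p = 0.0264, edgeR). Of the 108 up-regulated genes not set apart, 35 were also called higher than in the late group. Of the 91 testable ones among the 100 down-regulated, 40 were also called lower. With all libraries, no gene of the myogenic regulator or clock lists was called against the late group. Without early library 4, 5 genes of the myogenic list were called higher and 6 lower. Of the clock list, 1 was then called higher and 4 lower, where 9.97% and 12% of all tested genes were called. Trem2, Ms4a7, Clec4n and Chrng were among the genes that did not pass with all libraries. For each of these, late library 4 lay far above the other 3 late libraries, for Chrng at 14.4 CPM against 0.242 to 0.941 CPM. Actc1 was below the late group, with a log2 fold change of -4.01 (SE 0.60, adjusted p = 0.0225, edgeR), and late libraries measured 71.3 to 424 CPM.

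**Figure D5:**
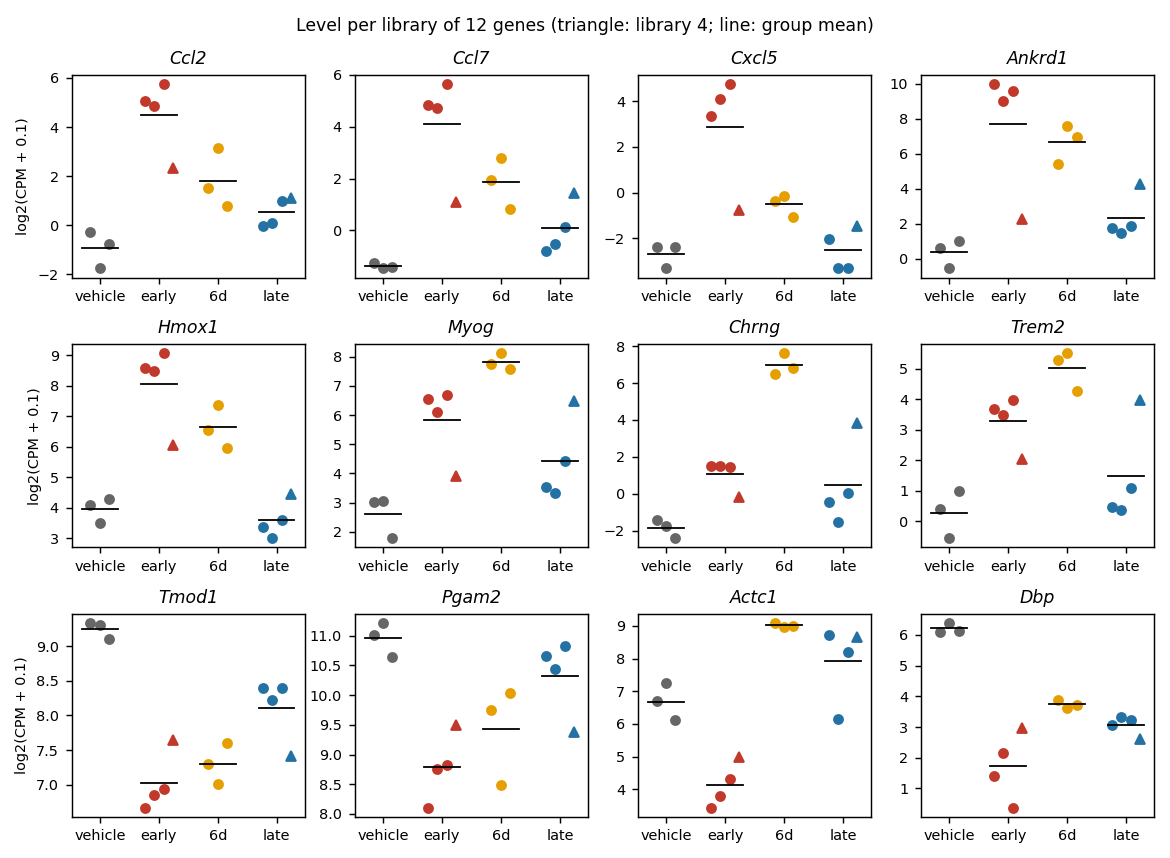
Each panel is a gene, each point a library as log2(CPM + 0.1), and the line the group mean; triangles are library 4 of the early and late groups. Ccl2, Ccl7, Cxcl5, Ankrd1 and Hmox1 are highest in early libraries 1 to 3, Myog, Chrng and Trem2 are higher at 6d, and Tmod1, Pgam2, Actc1 and Dbp are lower in all early than in all vehicle libraries.

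For the genes set apart, the median log2 fold change of early over late 10U Col was -0.12 over the 78 higher ones and -0.03 over the 49 of the 54 lower ones that could be tested, and 2 were called. Against vehicle, 45 and 26 of them were called. The 5 with the largest increase were C230091D08Rik, 4930429F24Rik, Gm5088, Sh2d7 and C130083M11Rik. C230091D08Rik had no vehicle count and lay at 24.6 to 32 CPM in early and 25.7 to 38.3 CPM in late libraries. Sh2d7 was at 5.41 to 12.4 CPM in early and 7.08 to 35.8 CPM in late libraries, and 4930429F24Rik at 7.1 to 22 CPM and 17.9 to 37.8 CPM. The 5 with the largest decrease were Sco2, LOC100503496, Tpt1, Tmem140 and Abhd1. Sco2, a mitochondrial copper chaperone whose model lies over 768 bases of Ncaph2 exons on the opposite strand, was at 1.59 to 5.15 CPM in vehicle and had no count in any 10U library. Tmem140, with 2168 opposite-strand bases, was at 41.3 to 62.5 CPM in vehicle and 0.975 to 1.02 CPM in early libraries.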

How the data were processed

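Libraries were stranded and poly(A)-selected, and reads were single-end and 50 bases long. Per the labels, the authors aligned them to build mm9 with TopHat2. HTSeq is named among the tools, and the strand setting is not given in the sources used here. The deposited tables hold raw read counts per gene symbol, without normalization, and end in 5 summary lines on uncounted reads, of which only shares were used here. No 2 libraries were identical.

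In each comparison, a gene was kept if 3 or more of its libraries reached 10 counts. edgeR 4.0.16 in R 4.3.3 (TMM, quasi-likelihood test, group as the sole factor) was run on the libraries compared, with Benjamini-Hochberg adjustment over all tested genes. Calls needed an adjusted p under 0.05 and a fold change over 2. Standard errors are log2 fold changes over the root of F. Printed CPM are counts scaled by TMM over all 31 libraries. Counting error is 31.6% of a count of 10, and intervals and floors cover counting error only. Of 22609 symbols, 21627 were joined to GENCODE vM1 (mm9) by symbol and 45 by synonym. DESeq2 1.42.0 served as an alternative. Named genes are the 12 largest changes each way among called genes that were not set apart and whose groups did not overlap, called members of 44 gene lists first by p, some defining members of these lists (a few genes are not reported here), and the 5 largest changes each way among genes set apart. The comparison, gene lists and markers were chosen with earlier results of these data known. Promoter windows come from a table of RefSeq (GRCm38.p6) sequences, in which 43 of 60 genes looked up were matched. In simulated data, 132 of 200 genes changed by 2 on the log2 scale were recovered in the early against vehicle design among 13885 genes, and 7 of 139 calls were wrong.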

Additional observations from a re-analysis of the deposited data

Results flagged for a closer look

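In each group of 4, the gap of the highest or lowest library to its neighbour was divided by the range of the group and compared with Dixon's 95% critical value of 0.829. Of 76 such tests, 8 passed, and chance flags about 1 in 20 groups. In the early 10U group, library 4 stood out in depth, at 27573542 counts on genes (gap 0.916 of the range). In the late group, library 4 was the highest for Ankrd1 (19.6 CPM, gap 0.945), Clec4n (14.6 CPM, gap 0.893) and Hmga2 (0.401 CPM, gap 0.849) and the lowest for Gm5088 (22.8 CPM, gap 0.917). Cplx3, with 1 count in early library 1 and in late library 4 and 0 in the others, and Amelx, with 1 count in late library 2, gave a gap of 1, which a lone count always gives.

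The reads set aside as overlapping more than 1 gene, outside the gene counts, made up at least 0.338% of reads in the early 10U libraries and at most 0.115% in the vehicle libraries.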

How the results depend on the processing

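Of the 70 named or called list genes, none reversed its direction under the alternatives in which it had a value. Early versus vehicle with all libraries gave 153 up- and 126 down-regulated genes. DESeq2 gave 1110 and 931, 1 fit over all 31 libraries 1176 and 1188, and both vehicle groups pooled 1360 and 1184. Leaving out each library in turn gave 10 to 1481 and 2 to 1704. DESeq2's size factors in edgeR gave 152 and 141, no low-count filter 160 and 129, no fold threshold 164 and 155, and a mean RPKM over 1 136 and 118. With early versus late, edgeR gave 529 and 249, DESeq2 1231 and 866, no filter 347 and 118, and no fold threshold 774 and 491. Leaving out each library gave 0 to 1420 and 0 to 1717, and leaving out late library 4 gave 1352 and 573.

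Replicate numbers were tried as a block on libraries 1 to 3, which gave 1528 and 1551 against vehicle, where early library 4 is absent; against the late group, with the replicate block over 4 pairs, 2 and 1 genes were called. Deviations of same-numbered libraries from their group means correlated at r of -0.25, 0.15 and 0.12 against vehicle and -0.40 to 0.12 against the late group. Pairs with different numbers were not compared. Whether the numbers mark a shared batch was therefore not tested.

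Leaving out early library 1, 2 or 3 ended the call of 60 to 65 of the 68 or 69 of these genes that had a value, and leaving out vehicle library 1, 2 or 3 that of 25 to 51 of 57; the adjusted p of many calls was 0.0483, just under the threshold. The cause of these shifts was not tested. Genes with a few counts in a group are given as bounds or ratios.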

Other observations

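Some lists with no call by edgeR with all 4 early libraries held calls without early library 4, when 10.5% of tested genes were up- and 12% down-regulated. With all libraries, 17.5% of tested genes were higher and 15.8% lower at an unadjusted p under 0.05 (edgeR). DESeq2 called 7.74% higher and 6.5% lower. Of 20 chaperones, 0 were called by edgeR with all libraries, 11 had an unadjusted p under 0.05, DESeq2 called 9 higher and 1 lower, and 11 rose without library 4. Hspa1b, an inducible heat-shock protein, was at 164, 57.4, 91.7 and 5.81 CPM in the early libraries and 2.09 to 6.13 CPM in vehicle. Cryab, the small heat-shock protein of muscle, was at 3257, 2072, 3359 and 557 CPM against 463 to 816 CPM. Of 21 lysosome and phagocyte genes, 0 were called with all libraries in edgeR (11 at an unadjusted p under 0.05; DESeq2 8 higher) and 10 rose without library 4. Of 34 matrix glycoproteins, 0 were called (11 at an unadjusted p under 0.05; DESeq2 8 higher), and without library 4, 11 rose and 1 fell. Ctss, a cathepsin of phagocytes, was at 96.9, 143, 231 and 47.5 CPM in early and 13.8 to 32.2 CPM in vehicle libraries.

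Collagen genes gave 0 calls of 34 with all libraries in edgeR (6 at an unadjusted p under 0.05; DESeq2 2 higher and 3 lower), and without library 4, 2 rose and 5 fell. Col1a1, the main fibrillar collagen, was at 768 to 2246 CPM in early and 142 to 2358 CPM in vehicle libraries, and 2835 to 5567 CPM at 6d. Of 12 fibroblast markers, 0 were called with all libraries in edgeR, 4 had an unadjusted p under 0.05, DESeq2 called 3 lower, and 5 fell without library 4. For both lists, the share of all tested genes at that unadjusted p was 17.5% higher and 15.8% lower. Pdgfra, a defining receptor of fibroblasts, was at 33.8 to 82.2 CPM in early and 31.8 to 92.1 CPM in vehicle libraries.

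Of 15 pain mediators, 0 were called with all libraries in edgeR, and DESeq2 called 2 higher. At an unadjusted p under 0.05 there were 4, where 17.5% of all tested genes were higher and 15.8% lower. Ptgs2, the inducible cyclooxygenase, and Gdnf, a neurotrophic factor, rose without library 4, while Ntf3 fell. Ptgs2 was at 7.77, 12.1, 37.2 and 0.188 CPM in the early libraries and 0.196 to 0.77 CPM in vehicle.

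Late library 4 resembled the 6d libraries in several genes of regeneration. Myog was at 88.3 CPM in it and 9.9 to 21.3 CPM in the other late libraries, and at 191 to 278 CPM at 6d. Tnc, a matrix protein of regenerating muscle, was at 812 CPM in it, 42.7 to 60.7 CPM in the other 3 and 1082 to 2042 CPM at 6d.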
